A study of Saccharomyces cerevisiae with 6 samples.

Results

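The 53 genes described here encode the enzymes, structural proteins and signalling components of the cell wall of Saccharomyces cerevisiae. They were chosen by name, by a rule that uses no measured value, although with earlier results of these data known, and are 53 of the 7125 genes in the deposited gene table. By role, 19 act on glucan, 8 act on chitin, 14 encode mannoproteins or enzymes that process them, and 12 belong to the cell wall integrity signalling pathway. Poly(A)-selected RNA was sequenced with strand information from a wild-type strain and a strain lacking KAP114, in 3 libraries each. Kap114 is a karyopherin, an import receptor of the nuclear envelope. Both strains have the S288C background, and both were grown in YPD, a rich glucose medium, containing 1.5 M NaCl, so every level below is a level in high salt and no response to salt was measured. The names of the libraries of both groups carry the word TAF1, which the labels do not explain. Separate cultures are not recorded for the libraries of a strain. The p-values therefore rest on differences among these 6 libraries and could cover technical variation alone. In RNA from whole cultures, more cells at a given stage and more RNA per cell cannot be told apart.

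The yeast wall is built around a network of beta-1,3-glucan, made at the plasma membrane by glucan synthase and extended and branched by transglycosylases. Chitin forms the septum between mother and daughter and is linked to glucan in the lateral wall, while beta-1,6-glucan and disulphide or alkali-sensitive bonds hold an outer layer of heavily mannosylated proteins. Damage or swelling of the wall is detected by membrane sensors, which act through the GTPase Rho1 on the kinase Pkc1 and a cascade of mitogen-activated protein kinases that ends in Slt2 and the transcription factor Rlm1. Slt2 also acts on SBF, the complex of Swi4 and Swi6, which drives wall and cyclin genes at the start of the cell cycle.

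KAP114 itself had 257, 336 and 312 counts in wild-type libraries 1 to 3 and 0 counts in each knockout library. Library totals ranged from 33638728 to 38540115 counts, and a floor of 3 counts in 1 library corresponds to 0.0778 to 0.0892 CPM (counts scaled to the library total), for counting error only. All 53 wall genes passed the filter on low counts; the lowest level in any library was 2.22 TPM, for MKC7. TPM, the length-scaled value deposited by the authors, is used below for levels, and log2 fold changes come from the counts. Knockout library 1 lay between the groups on the first principal component of all genes, at 12.01; the wild-type libraries lay between -42.99 and -29.5 and the other knockout libraries at 53.05 and 42.4. The share of counts on the ribosomal RNA locus RDN37 ranged from 3.69% to 4.54% for wild-type libraries and from 9.05% to 12.3% for knockout libraries, and its part in the results was not tested.

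Upstream sequences of the members whose word content is described below are shown first. The word CGCGAAA, the core of the site bound by Swi4, was found on either strand of the 500 bases before the start codon in 12 of the 53 wall genes (22.6%), and in 349 of 6000 nuclear protein-coding genes of the RefSeq R64 genome (5.82%). In the lines that follow, capitals mark the word or its reverse complement, and each line is read 5′ to 3′ along the coding strand of its gene, with the distance from the first base of the word to the start codon.
GAS1, chrXIII:886636-886662, plus strand, word at 357: ttcgatatatTTTCGCGgctcgcgttt
GAS3, chrXIII:696614-696640, plus strand, word at 172: cgagaattttTTTCGCGcgctttctat
EXG2, chrIV:979353-979379, minus strand, word at 160: aaataagtccCGCGAAAaaagaagaaa
SCW4, chrVII:1050375-1050401, minus strand, word at 433: aggcaccgctTTTCGCGcgacaccctg
SCW10, chrXIII:880618-880644, minus strand, word at 402: cttttaattgCGCGAAAcagcggacaa
SUN4, chrXIV:501342-501368, plus strand, word at 163: ggatttacggCGCGAAAataagtttct
SIM1, chrIX:127915-127941, plus strand, word at 226: ttttttggcgTTTCGCGtcagtcaata
UTR2, chrV:77806-77832, plus strand, word at 237: taggaagaagCGCGAAAattcttgaaa
CWP1, chrXI:260663-260689, plus strand, word at 459: aaacccctccCGCGAAAacaaaaaaag
CWP2, chrXI:258929-258955, plus strand, word at 314: attgcggaaaTTTCGCGcttatcatta
CCW12, chrXII:370375-370401, minus strand, word at 293: gaattccccaTTTCGCGgccacctacg
YPS3, chrXII:390498-390524, minus strand, word at 244: ctcttattttTTTCGCGcttcctttgt

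A second set shows the word of Rlm1, CTA and TAG spaced by 4 unspecified bases, again in capitals, in a selection of the 13 members that hold it. Shown are GSC2, whose level fell in the knockout, abundant mannoprotein genes, and SUN4, which carries both words, as does CWP1. Not shown are CWP1, GAS5 and BCK1, which rose, and BGL2, CHS1, MKK1 and RLM1, which did not pass.
GSC2, chrVII:547918-547947, plus strand, word at 336: aactggtgtgCTAAGAATAGagtttcataa
PIR3, chrXI:144111-144140, plus strand, word at 280: gattagcaaaCTAATTATAGatcaaaggcc
HSP150, chrX:120216-120245, plus strand, word at 223: acattttgagCTAAATTTAGattttggtca
CCW14, chrXII:903495-903524, plus strand, word at 219: cggaaaattaCTATTTATAGaagcattgga
SED1, chrIV:600303-600332, plus strand, word at 480: gcatatatcgCTAAAATTAGccatcagaac
SUN4, chrXIV:501418-501447, plus strand, word at 87: tcaattagcaCTAATCTTAGaaaatttgca

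In the knockout 30 of the 53 wall genes were higher and 6 lower at an adjusted p under 0.05. The adjusted p throughout is that of the edgeR quasi-likelihood fit of counts, corrected by the Benjamini-Hochberg method over every tested gene. That is 56.6% higher and 11.3% lower, beside 34.3% higher and 30.0% lower among all 6080 tested genes, of which 64.3% passed in either direction. The median log2 fold change of the wall genes was 0.43, with quartiles of -0.28 and 1.31, beside a median of 0.012 over all tested genes. Of the 53 wall genes, 17 rose and 2 fell by at least 2-fold, beside 1041 (17.1%) and 464 (7.63%) of all 6080 tested genes. The libraries of the groups did not overlap in CPM for 40 wall genes (75.5%), near the 73.8% of all tested genes. Summed over the wall genes, the deposited TPM came to 34764, 38983 and 35033 for the wild type and to 47508, 42021 and 45708 for the knockout, and each knockout sum was above each wild-type sum. This held for the mannoprotein genes alone, whose sums ran from 28311 to 31826 and from 36078 to 40272. CCW12 by itself went from a mean of 3379 ± 565 to 12696 ± 2846 TPM (SD, n = 3 each). That rise was larger than the rise in the mean of either sum. Without CCW12 the groups overlap in both the sum over the wall genes and the mannoprotein sum. The sums overlapped for the glucan genes (4827 to 5557 against 4522 to 5649), the chitin genes (738 to 861 against 741 to 853) and the signalling genes (673 to 739 against 639 to 734). In the authors' deposited table, 27 wall genes had a false discovery rate under 0.05 and a positive fold change, and 6 a negative one. Of all 6570 genes with a value there, 1986 and 1666 did.

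The count of lower genes depended on knockout library 1: it was 16 without that library, with 31 higher, beside 37.00% lower and 38.9% higher among all genes then tested. With scaling by library totals only, the median of all tested genes moved to -0.13 and 25 wall genes were called higher and 9 lower.

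**Figure D1:**
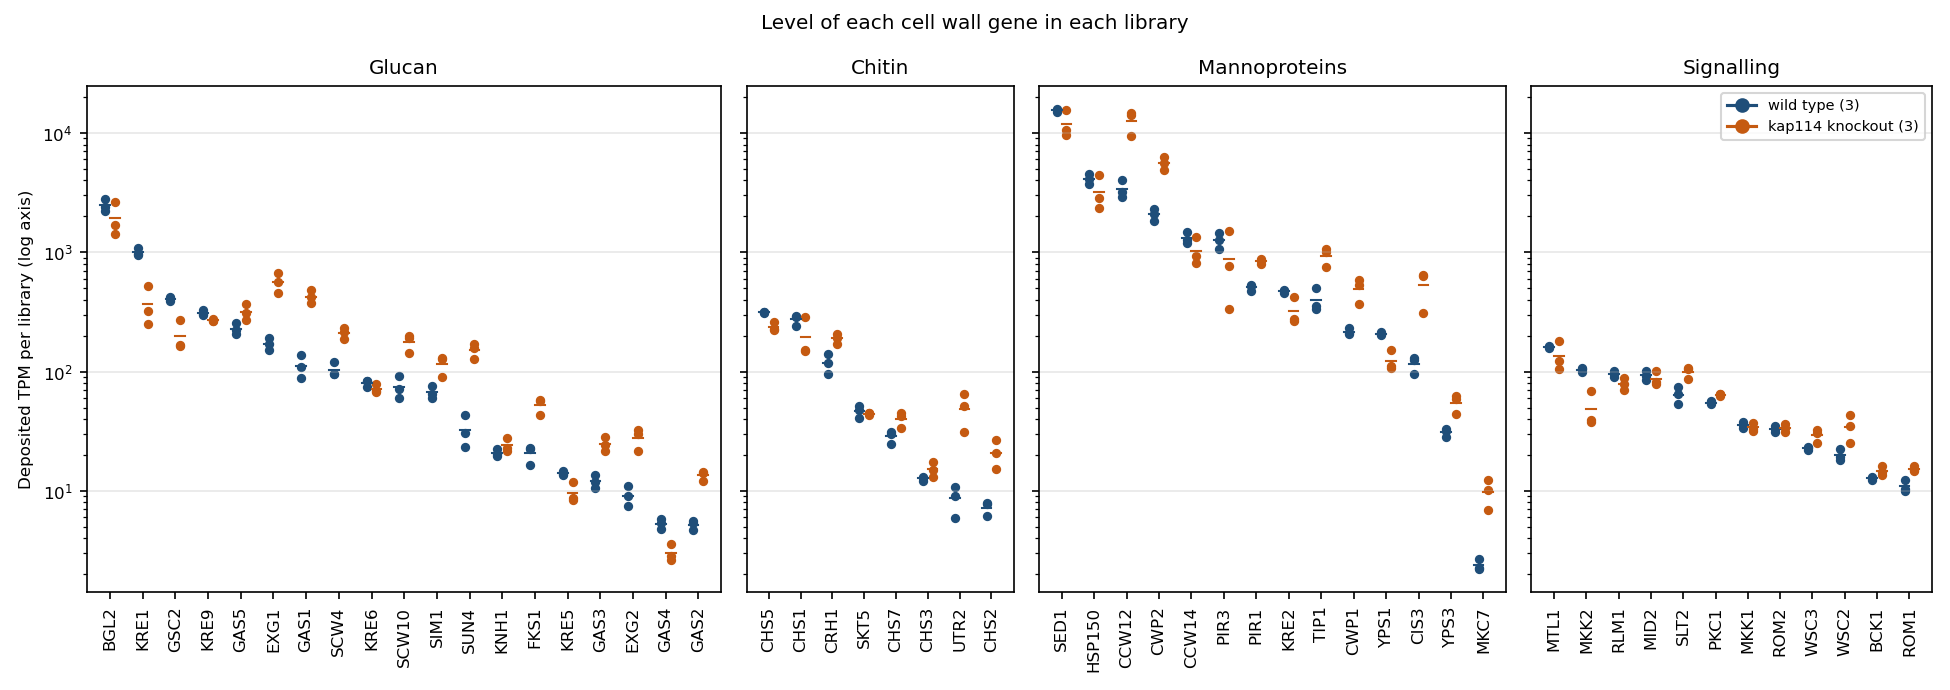
Deposited TPM of each of the 53 wall genes in each library, on a log axis, by role; points are libraries and short lines the group means (3 libraries each). The mannoprotein genes span the widest range, from MKC7 at 2.39 TPM to SED1 at 15473 TPM in the wild-type means.

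Genes of glucan synthesis and remodelling were mostly higher in the knockout: 11 of 19 rose, 4 fell and 4 did not pass, with a median log2 fold change of 0.86. Without wild-type library 1 or knockout library 3, 2 were called lower. The genes of the catalytic subunits of glucan synthase changed in opposite directions. FKS1 (chromosome XII, 809997 to 815627, plus strand, build R64), for the subunit that prevails during growth on glucose, had 16.6, 23.02 and 22.3 TPM in wild-type libraries 1 to 3 and 43.2, 57.9 and 56.4 TPM in knockout libraries 1 to 3. All knockout libraries lay above all wild-type libraries, and FKS1 rose 2.68-fold (log2 1.42 ± 0.18, SE; adjusted p = 0.00114). GSC2 (chromosome VII, 548264 to 553951, plus strand), for the alternative subunit induced by stress and by carbon sources other than glucose, had 421, 389 and 417 TPM in wild-type libraries 1 to 3 and 271, 163 and 167 TPM in knockout libraries 1 to 3. The groups did not overlap, knockout library 1 lay nearest the wild type, and GSC2 fell 1.95-fold (log2 -0.96 ± 0.26, SE; adjusted p = 0.0135). GSC2 remained the more abundant in every library: the log2 ratio of FKS1 to GSC2 (TPM + 1) had wild-type values of -4.58, -4.02 and -4.17 and knockout values of -2.62, -1.48 and -1.55. Without wild-type library 1 or knockout library 3, GSC2 did not pass (adjusted p = 0.0523 and 0.0685).

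Of the 5 genes of the Gas family, transglycosylases that elongate beta-1,3-glucan chains, GAS1, GAS2, GAS3 and GAS5 rose and GAS4 fell. GAS1, for the main enzyme of vegetative cells, had 88.3, 137 and 109 TPM in wild-type libraries 1 to 3 and 379, 479 and 418 TPM in knockout libraries 1 to 3, and rose 4.03-fold (log2 2.01 ± 0.20, SE; adjusted p = 0.00111). Every knockout library lay far above every wild-type library, and GAS1 went from rank 23 to rank 13 in mean TPM among the wall genes. GAS3 rose by 1.11 ± 0.14 and GAS5 by 0.54 ± 0.16 on the log2 scale (SE). GAS5 did not pass when wild-type library 1, wild-type library 3 or knockout library 3 was left out (adjusted p = 0.0928, 0.0880 and 0.0669) and with scaling by library totals only (adjusted p = 0.0637). GAS2 and GAS4 are known for expression in sporulating cells, and both were low here. GAS2 rose 2.73-fold (log2 1.45 ± 0.13, SE; adjusted p = 0.00111), from a mean of 5.22 ± 0.487 to 13.5 ± 1.22 TPM (SD, n = 3 each). GAS4 had 5.82, 4.76 and 5.35 TPM in wild-type libraries 1 to 3 and 3.58, 2.85 and 2.62 TPM in knockout libraries 1 to 3, all knockout libraries being lower, and fell 1.68-fold (log2 -0.75 ± 0.18, SE; adjusted p = 0.00877). GAS2 begins 466 bases after the end of FKS1 on the same strand, and both rose.

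Most secreted glucanases and related enzymes rose. EXG1, for the main exo-beta-1,3-glucanase, had 151, 191 and 169 TPM in wild-type libraries 1 to 3 and 460.3, 675 and 564 TPM in knockout libraries 1 to 3. The groups were well apart, and EXG1 rose 3.50-fold (log2 1.81 ± 0.20, SE; adjusted p = 0.00111); EXG2, for its membrane-anchored relative, was less abundant in every library and rose 3.23-fold. SCW4 and SCW10, for wall proteins related to glucanases, rose 2.15-fold and 2.51-fold. SUN4 and SIM1 encode wall proteins of the SUN family, and SUN4 acts in the separation of mother and daughter. SUN4 had 23.5, 42.96 and 30.8 TPM in wild-type libraries 1 to 3 and 128, 169 and 159 TPM in knockout libraries 1 to 3, and rose 4.95-fold (log2 2.31 ± 0.23, SE; adjusted p = 0.00111). In the wild type SUN4 lay below SIM1 in every library and in the knockout above it, with wild-type log2 ratios of -1.33, -0.81 and -1.04 and knockout ratios of 0.51, 0.41 and 0.28; SIM1 rose 1.81-fold. BGL2, for an abundant glucan transferase and the highest glucan gene in TPM, had 2392, 2797 and 2219 TPM in wild-type libraries 1 to 3 and 2638, 1436 and 1693 TPM in knockout libraries 1 to 3. Knockout library 1 lay among the wild-type libraries and knockout libraries 2 and 3 below all of them, and BGL2 did not pass (log2 -0.29 ± 0.28, SE; adjusted p = 0.376), whereas without knockout library 1 its log2 fold change was -0.58 (adjusted p = 0.0123).

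Of the 5 genes of beta-1,6-glucan synthesis KRE1 and KRE5 fell and the others did not pass. KRE1, for a wall protein anchored by glycosylphosphatidylinositol (GPI) that is needed for beta-1,6-glucan and binds the K1 killer toxin, had 1081, 951 and 961 TPM in wild-type libraries 1 to 3 and 521, 250.4 and 324 TPM in knockout libraries 1 to 3. Every knockout library was lower than every wild-type library, with knockout library 1 the highest of the 3, and KRE1 fell 2.61-fold (log2 -1.38 ± 0.28, SE; adjusted p = 0.00472), the largest decrease among the 53 genes. KRE5, for a protein of the endoplasmic reticulum required for the polymer, fell by 0.48 ± 0.14 on the log2 scale (SE; adjusted p = 0.0211). KRE5 failed the threshold when any library other than wild-type library 2 and knockout library 1 was left out (adjusted p from 0.0521 to 0.0804). KRE6, for a membrane protein of the secretory pathway related to glucosyl hydrolases, KRE9 and KNH1, for a pair of related secreted glycoproteins, did not pass, at -0.088 ± 0.11, -0.14 ± 0.12 and 0.29 ± 0.14 (log2, SE). KNH1 passed without knockout library 1, at 0.37 (adjusted p = 0.0242).

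**Figure D2:**
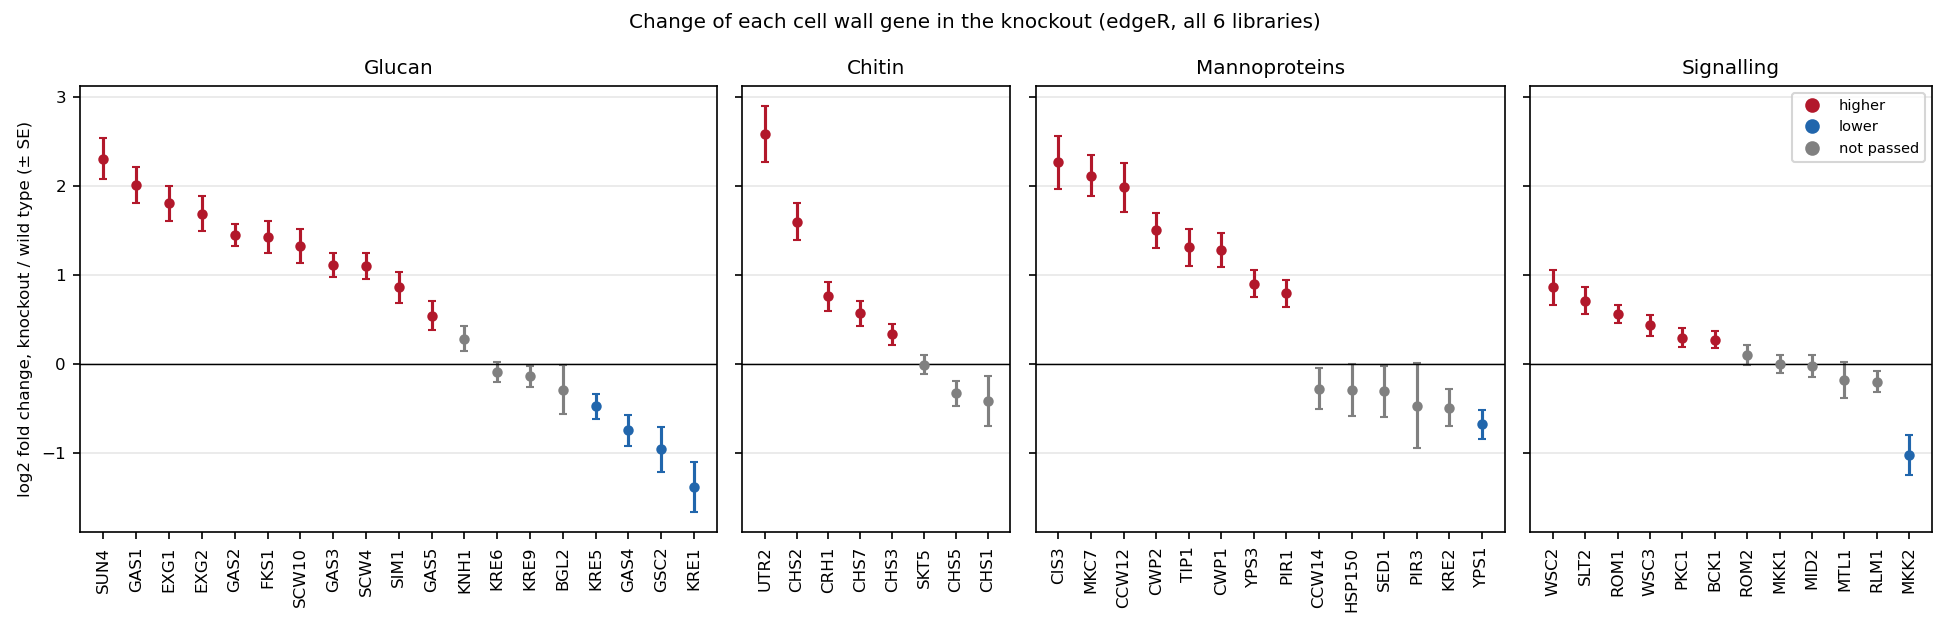
Log2 fold change of each wall gene, knockout over wild type, with its SE, by role (edgeR, 3 libraries each); red and blue points passed an adjusted p of 0.05 and grey points did not. UTR2 stands highest at 2.58 and KRE1 lowest at -1.38, while the signalling genes lie within -1.02 and 0.86.

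Of the 8 chitin genes, 5 rose, 0 fell and 3 did not pass, with a median log2 fold change of 0.45; with scaling by library totals only, 4 rose and 1 fell, and 2 fell without knockout library 1. UTR2 and CRH1 encode transglycosylases that attach chitin to glucan. UTR2 (chromosome V, 78053 to 79456, plus strand) had 5.94, 10.9 and 9.14 TPM in wild-type libraries 1 to 3 and 31.1, 64.5 and 51.6 TPM in knockout libraries 1 to 3. The groups were widely separated, and UTR2 rose 5.99-fold (log2 2.58 ± 0.31, SE; adjusted p = 0.00114), the largest increase of all wall genes. CRH1 was the more abundant of the pair in every library and rose 1.70-fold, so the log2 ratio of CRH1 to UTR2 had wild-type values of 3.78, 3.57 and 3.56 and knockout values of 2.43, 1.65 and 1.88.

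The 3 chitin synthases differed. CHS2, which lays down the primary septum at cytokinesis, had 6.12, 7.73 and 7.87 TPM in wild-type libraries 1 to 3 and 15.2, 26.5 and 20.7 TPM in knockout libraries 1 to 3, and rose 3.03-fold (log2 1.60 ± 0.21, SE; adjusted p = 0.00116) with no overlap between groups. CHS1, for the synthase that repairs the septum after separation, had 242, 292 and 287 TPM in wild-type libraries 1 to 3 and 285, 151 and 149.8 TPM in knockout libraries 1 to 3. Knockout library 1 was within the wild-type range and knockout libraries 2 and 3 were below it, and CHS1 did not pass (log2 -0.42 ± 0.28, SE; adjusted p = 0.220); without knockout library 1 the value was -0.78 (adjusted p = 4.82e-04). CHS3, for the synthase of the bud neck ring and lateral wall, rose by 0.33 ± 0.12 on the log2 scale (SE; adjusted p = 0.0459). It failed the threshold when any library except knockout library 1 was left out (adjusted p from 0.104 to 0.138), and with RLE scaling, library totals, DESeq2 and limma on TPM (adjusted p from 0.0658 to 0.227). CHS7, needed for Chs3 to leave the endoplasmic reticulum, rose by 0.57 ± 0.14. CHS5, a part of the exomer coat that carries Chs3 to the surface and the most abundant chitin gene, had 311, 315 and 317 TPM in wild-type libraries 1 to 3 and 259, 229 and 225 TPM in knockout libraries 1 to 3. All knockout libraries were lower, yet the gene did not pass (-0.33 ± 0.14, log2, SE; adjusted p = 0.0770), although it did with DESeq2 (adjusted p = 2.65e-04), with scaling by library totals only (0.0199) and without knockout library 1, at -0.38 (adjusted p = 0.0126). SKT5, for the activator of Chs3, did not pass, at -0.0067 ± 0.10.

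Among the 14 genes for mannoproteins and their processing, 8 rose, 1 fell and 5 did not pass, with a median log2 fold change of 0.85. Without knockout library 1, 6 were called lower. SED1 and CCW12, for GPI-anchored wall proteins, were the most abundant wall genes in the means of the wild type and of the knockout, respectively. SED1, best known as the major wall protein of stationary cells, had 15613, 15896 and 14909 TPM in wild-type libraries 1 to 3 and 15483, 9615 and 10699 TPM in knockout libraries 1 to 3. CCW12 (chromosome XII, 369697 to 370098, minus strand), for a small and highly expressed protein of growing cells, had 2932, 4014 and 3189 TPM in wild-type libraries 1 to 3 and 9424, 14064 and 14601 TPM in knockout libraries 1 to 3. Knockout libraries 2 and 3 had more CCW12 than SED1, knockout library 1 and all wild-type libraries less. CCW12 rose 3.96-fold (log2 1.99 ± 0.27, SE; adjusted p = 0.00123), whereas SED1 did not pass (log2 -0.31 ± 0.29, SE; adjusted p = 0.371); without knockout library 1 SED1 was at -0.52 (adjusted p = 0.0343). In mean TPM, SED1 was first and CCW12 rank 3 of the wall genes in the wild type, and CCW12 first and SED1 rank 2 in the knockout.

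Other GPI-anchored mannoprotein genes rose in part. CWP2 had 1837, 2311 and 2085 TPM in wild-type libraries 1 to 3 and 4862, 5599 and 6335 TPM in knockout libraries 1 to 3, and rose 2.84-fold (log2 1.50 ± 0.20, SE; adjusted p = 0.00114) without overlap. CWP1, which lies 1600 bases downstream of CWP2 on the same strand, rose 2.42-fold. TIP1, for a protein induced by cold and stress, rose 2.48-fold, and knockout library 1 was its highest, at 1064 TPM against 750.3 and 997 TPM. CCW14, for an inner wall protein, did not pass (-0.28 ± 0.23, log2, SE), and was at -0.51 (adjusted p = 0.00985) without knockout library 1. KRE2, for an alpha-1,2-mannosyltransferase of the Golgi, did not pass (-0.49 ± 0.21, log2, SE; adjusted p = 0.0708), but did with DESeq2 (adjusted p = 0.0148), with scaling by library totals only (0.0266), on log2(TPM + 1) with limma (0.0327) and without knockout library 1, at -0.72 (adjusted p = 3.64e-04).

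The 4 genes of the PIR family, for proteins with internal repeats that are bound to beta-1,3-glucan, had different calls: CIS3 and PIR1 rose, and HSP150 and PIR3 did not pass. CIS3 had 95.5, 129 and 124 TPM in wild-type libraries 1 to 3 and 311, 641 and 635 TPM in knockout libraries 1 to 3. Its groups were far apart, and CIS3 rose 4.81-fold (log2 2.26 ± 0.30, SE; adjusted p = 0.00116). HSP150, which ends 574 bases from the end of CIS3 on the opposite strand, had 3742, 4562 and 4099 TPM in wild-type libraries 1 to 3 and 4469.8, 2343 and 2842 TPM in knockout libraries 1 to 3. Here knockout library 1 lay in the wild-type range and the other knockout libraries below it, and HSP150 did not pass (-0.29 ± 0.29, log2, SE; adjusted p = 0.407), but stood at -0.59 (adjusted p = 0.0148) without knockout library 1. PIR1 and PIR3 are transcribed away from each other from starts 1581 bases apart. PIR1 had 478, 531 and 521 TPM in wild-type libraries 1 to 3 and 803, 879 and 841 TPM in knockout libraries 1 to 3, and rose 1.73-fold (log2 0.79 ± 0.15, SE; adjusted p = 0.00378). PIR3 had 1076, 1464 and 1269 TPM in wild-type libraries 1 to 3 and 1507, 336 and 774 TPM in knockout libraries 1 to 3. Its knockout libraries reached both above and below the wild-type libraries, and PIR3 did not pass (-0.47 ± 0.48, log2, SE; adjusted p = 0.409), while without knockout library 1 it was at -1.11 (adjusted p = 0.0104). These genes share some sequence: 6.14% of the 50-base words of PIR1 and 6.46% of those of PIR3 occur in the other, as do 1.34% of HSP150 and 2.52% of CIS3, so the division of those reads is uncertain. No other wall gene had a word of this length found elsewhere in the genome.

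The yapsins, GPI-anchored aspartyl proteases that process wall enzymes, also moved in both directions. YPS1 had 203, 206 and 215 TPM in wild-type libraries 1 to 3 and 152, 112 and 107 TPM in knockout libraries 1 to 3, all knockout libraries being lower, and fell 1.60-fold (log2 -0.68 ± 0.16, SE; adjusted p = 0.00893). MKC7, for a closely related yapsin, was the scarcest wall gene in the wild type, with 2.22, 2.70 and 2.24 TPM in wild-type libraries 1 to 3 and 6.95, 12.4 and 10.2 TPM in knockout libraries 1 to 3, and rose 4.34-fold (log2 2.12 ± 0.23, SE; adjusted p = 0.00113). The log2 ratio of YPS1 to MKC7 had wild-type values of 5.99, 5.81 and 6.06 and knockout values of 4.27, 3.08 and 3.28. YPS3, which lies 523 bases from YPS1 on the same strand, rose 1.87-fold.

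**Figure D3:**
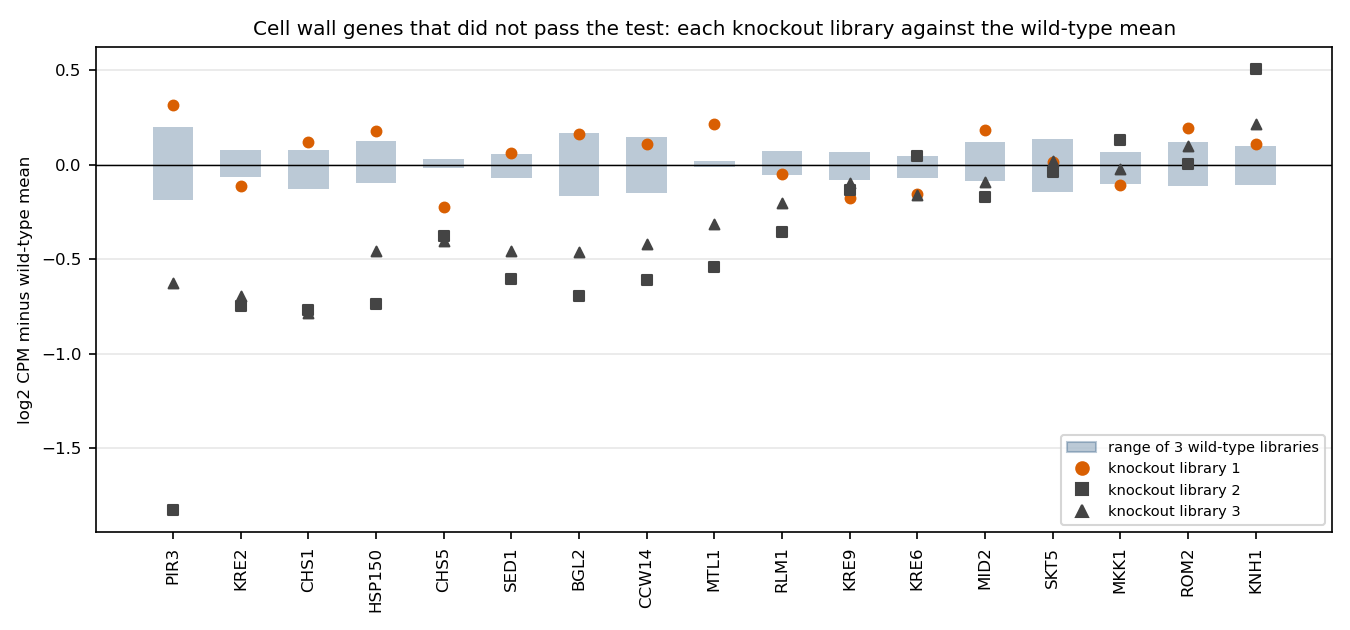
Log2 CPM of the 17 wall genes that did not pass, as the difference of each knockout library from the wild-type mean; bars show the range of the 3 wild-type libraries. For PIR3 the knockout libraries lie at 0.32, -1.83 and -0.63, and for CHS1 at 0.12, -0.77 and -0.79, with knockout library 1 above 0 and the others below.

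The pattern of a single knockout library near the wild type recurred among the genes that did not pass. Of these 17 genes, 8 (BGL2, CHS1, SED1, CCW14, PIR3, HSP150, MID2 and MTL1) were above the wild-type mean in knockout library 1 and below it in knockout libraries 2 and 3. The share of all tested genes with this pattern was not counted. Disagreement among knockout libraries itself makes a gene less likely to pass, so genes that did not pass favour the pattern. Over all wall genes, knockout library 1 was the knockout library nearest the wild-type mean for 45 of 53 (84.9%), beside 75.4% of all tested genes. Without that library 11 more wall genes passed, 10 of them lower, and each gene called with all libraries was called in the same direction. What set this library apart was not tested.

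Of the 12 signalling genes 6 rose, 1 fell and 5 did not pass, MKK2 alone moved by at least 2-fold, and the median log2 fold change was 0.18. Only 3 were called higher without wild-type library 2, wild-type library 3 or knockout library 3, and scaling by library totals only gave 3 higher and 2 lower. Among the sensors, WSC2 had 18.3, 22.2 and 19.4 TPM in wild-type libraries 1 to 3 and 25.3, 43.2 and 34.95 TPM in knockout libraries 1 to 3, and rose 1.82-fold (log2 0.86 ± 0.20, SE; adjusted p = 0.00732). WSC3, its close relative, rose by 0.43 ± 0.12 on the log2 scale (SE; adjusted p = 0.0161), but not when wild-type library 2 or 3 or knockout library 3 was left out (adjusted p = 0.0521, 0.0613 and 0.0636) and with scaling by library totals only (0.0663). MID2 did not pass (-0.023 ± 0.13, log2, SE). MTL1, its relative and the most abundant signalling gene, had 159, 162 and 161 TPM in wild-type libraries 1 to 3 and 179, 105 and 123 TPM in knockout libraries 1 to 3. Knockout library 1 was above and the others were below a narrow wild-type range, and MTL1 did not pass (-0.18 ± 0.20, log2, SE), but stood at -0.42 (adjusted p = 0.00480) without knockout library 1. YGR022C, annotated on the opposite strand, overlaps MTL1 by 323 bases and had 2643 counts over all libraries beside 54813 for MTL1.

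Of the exchange factors that activate Rho1, ROM1 had 10.1, 10.4 and 12.3 TPM in wild-type libraries 1 to 3 and 16.1, 14.8 and 14.97 TPM in knockout libraries 1 to 3, and rose 1.47-fold (log2 0.56 ± 0.10, SE; adjusted p = 0.00309). ROM2, the more abundant, had 34.8, 33.3 and 30.9 TPM in wild-type libraries 1 to 3 and 36.2, 31.3 and 33.5 TPM in knockout libraries 1 to 3; its groups overlapped, and it did not pass (0.097 ± 0.11, log2, SE; adjusted p = 0.468), with a negative sign when scaled by library totals only. Along the kinase cascade, PKC1 and BCK1, for the first kinases, rose by 0.29 ± 0.11 and 0.27 ± 0.096 on the log2 scale (SE; adjusted p = 0.0430 and 0.0395). Neither passed when any library except knockout library 1 was left out (adjusted p from 0.0886 to 0.138 for PKC1 and from 0.0935 to 0.126 for BCK1), nor under RLE scaling, library totals or limma on TPM. PKC1 also failed without the low-count filter and BCK1 with DESeq2, and the adjusted p under these settings and the replicate block ran from 0.0506 to 0.241 and from 0.0529 to 0.280. MKK1 and MKK2 encode redundant kinases of the next tier. MKK2 had 98.5, 106 and 106 TPM in wild-type libraries 1 to 3 and 68.2, 38.1 and 39.5 TPM in knockout libraries 1 to 3, with no overlap, and fell 2.03-fold (log2 -1.02 ± 0.22, SE; adjusted p = 0.00629). MKK1 had 35.7, 33.9 and 37.99 TPM in wild-type libraries 1 to 3 and 31.9, 37.1 and 33.4 TPM in knockout libraries 1 to 3, which overlap, and did not pass (adjusted p = 0.995). The log2 ratio of MKK1 to MKK2 had wild-type values of -1.44, -1.62 and -1.46 and knockout values of -1.07, -0.035 and -0.24. SLT2, for the last kinase, had 53.4, 73.9 and 64.8 TPM in wild-type libraries 1 to 3 and 85.95, 108 and 105 TPM in knockout libraries 1 to 3, and rose 1.64-fold (log2 0.71 ± 0.15, SE; adjusted p = 0.00537). RLM1, for the transcription factor below it, did not pass (-0.20 ± 0.12, log2, SE; adjusted p = 0.189), but did without knockout library 1, at -0.27 (adjusted p = 0.0261), and with scaling by library totals only (adjusted p = 0.0387).

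**Figure D4:**
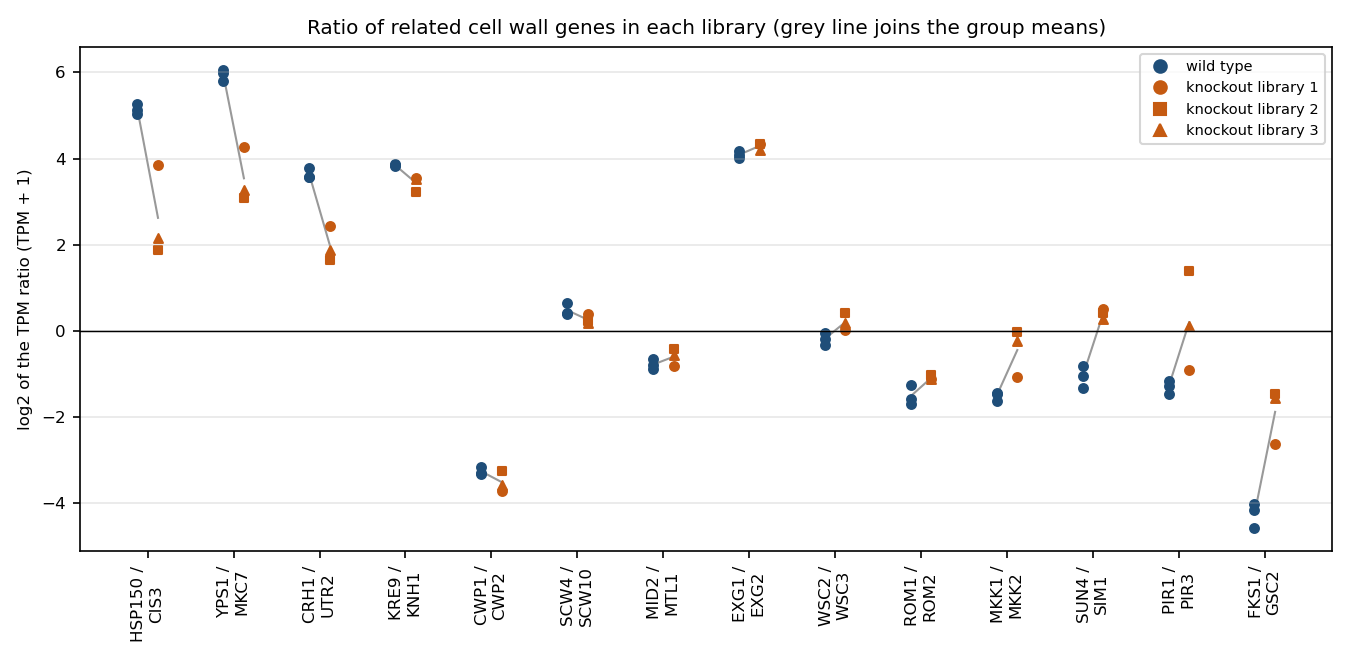
Log2 of the TPM ratio (pseudocount 1) of 14 pairs of related wall genes in each library; grey lines join the group means of 3 libraries. The ratio of HSP150 to CIS3 falls furthest, from a mean of 5.15 to 2.62, and that of FKS1 to GSC2 rises furthest, from -4.26 to -1.88.

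A ratio of related genes within a library does not depend on how libraries are scaled to each other. Of 14 pairs compared, 11 had ratios that did not overlap between the groups. Each of those had an exact two-sided permutation p of 0.1, the smallest that 3 libraries against 3 allow, and an adjusted value of 0.127 over the pairs, so no ratio passed. Ratios of other gene pairs were not computed for a background. For single genes, the groups did not overlap in CPM for 73.8% of all tested genes. The mean log2 ratio went from -4.26 ± 0.29 to -1.88 ± 0.64 for FKS1 over GSC2 (SD, n = 3 each). It went from 5.15 ± 0.12 to 2.62 ± 1.06 for HSP150 over CIS3 and from 5.95 ± 0.13 to 3.54 ± 0.64 for YPS1 over MKC7. In these 3 pairs the more abundant gene of the wild type was the more abundant in every knockout library too, by a smaller margin. For PIR1 over PIR3 the mean went from -1.30 ± 0.15 to 0.20 ± 1.15, with knockout library 1 at -0.91 and knockout library 2 at 1.38. The ratios of SCW4 to SCW10, CWP1 to CWP2 and MID2 to MTL1 overlapped between the groups, with differences of -0.22, -0.25 and 0.18.

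The members with the Swi4 word in the sequences shown above were all among those that rose. All 12 of them passed as higher, with log2 fold changes from 0.86 for SIM1 to 2.58 for UTR2 and a median of 1.42. Of the 41 wall genes without the word, 18 rose and 6 fell, with a median of 0.00076. Among tested genes other than the members, 140 of 333 with the word rose (42.04%) and 24.9% fell, beside 34.8% and 30.95% of those without it. A second form of the site, CACGAAA, was found in 6 members, of which 5 rose and GSC2 fell. The Rlm1 word was in 13 members (24.5%, beside 9.27% of all nuclear protein-coding genes), of which 4 rose, 1 fell and 8 did not pass. AGGGG, the word of the stress factors Msn2 and Msn4, was in 14 members (26.4%, beside 34.1%), of which 8 rose and 1 fell. Of the members lacking CACGAAA, the Rlm1 word or AGGGG, 53.2%, 65.0% and 56.4% rose, in that order. Outside the members, 36.9% of tested genes with CACGAAA rose and 28.9% fell. These shares were 32.9% and 33.9% with the Rlm1 word and 28.3% and 36.4% with AGGGG. These 4 words were searched after the fold changes were known, matches of different words did not overlap in any member, and a match describes letters in a window, not binding.

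**Figure D5:**
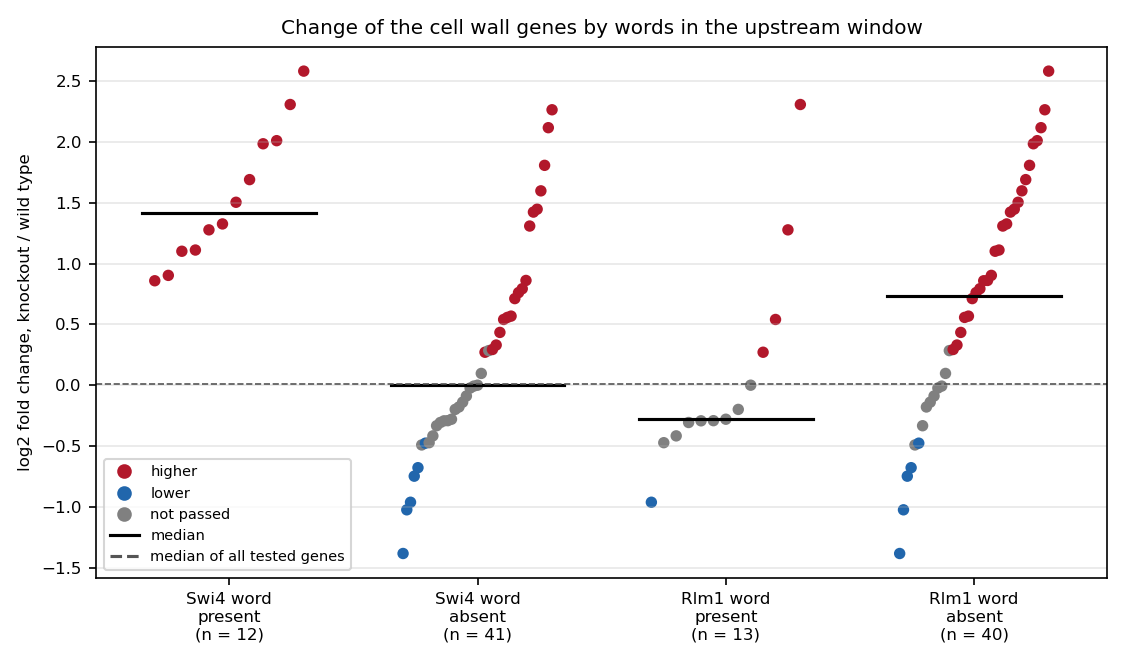
Log2 fold change of the wall genes, split by whether the 500 bases before the start codon hold the Swi4 word or the Rlm1 word; points are genes coloured by call and black lines are medians. All 12 genes with the Swi4 word lie above the dashed median of all tested genes, and genes with the Rlm1 word have a median of -0.28.

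Other genes of wall construction, from lists that leave out the members, are given against the same background of 34.3% higher and 30.0% lower. In the integrity pathway 7 of 21 rose and 6 fell (median log2 0.14). SWI6, a subunit of SBF, rose 2.62-fold, the sensor gene WSC4 2.13-fold and KDX1, for a kinase-like protein related to Slt2, 1.91-fold, while SLG1 (also named WSC1), for the main sensor, fell 1.58-fold, PKH1 1.80-fold and ACK1 1.84-fold. The lower count of this list was 8 without knockout library 1 and 3 without knockout library 3. Of other reported targets of Slt2 and Rlm1, 5 of 13 rose and 4 fell (median log2 -0.28). YNL058C rose 3.79-fold, YLR042C 3.42-fold and YJL171C 2.85-fold, and FBP26 fell 1.99-fold, PUN1 1.80-fold and YMR295C 1.41-fold. The count of lower genes in this list changed with each library left out. It was 8 without knockout library 1, 0 without knockout library 3 and 1 when any other library was left out, with 5 higher each time.

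For precursors, 7 of 10 rose and 0 fell (median log2 0.71): PGM1, for a phosphoglucomutase, rose 4.75-fold, PSA1, which makes GDP-mannose, 3.38-fold and PMI40, for mannose-6-phosphate isomerase, 1.63-fold. PGM2, for the other phosphoglucomutase of the list, had a wild-type mean of 173 TPM, beside 4.83 TPM for PGM1. PGM2 did not pass (log2 0.19 ± 0.14, SE, adjusted p = 0.244). Of the mannosyltransferases 9 of 25 rose and 5 fell (median log2 0.098), including PMT4, PMT2 and MNN1, which rose 2.40-fold, 2.34-fold and 2.12-fold, and MNN5, ANP1 and MNN2, which fell 2.16-fold, 1.59-fold and 1.35-fold. Leaving out any library except knockout library 1 gave 4 to 6 of them higher and 2 to 4 lower, the fewest in both directions without knockout library 3, and scaling by library totals only gave 4 higher and 7 lower. Among other chitin genes 4 of 9 rose and 1 fell (median log2 0.14). The exomer genes BCH2, CHS6 and BCH1 rose 3.09-fold, 2.22-fold and 1.87-fold, while BUD7, of the same family, did not pass (0.13 ± 0.11, log2, SE; adjusted p = 0.353), and CRR1, the spore wall relative of CRH1, fell 1.78-fold. Among other wall proteins and enzymes 8 of 19 rose and 4 fell (median log2 0.29). PRY3, DSE4 and SCW11 rose by 1.58, 1.51 and 1.10 on the log2 scale, and the yapsin gene YPS7 fell 1.57-fold, FKS3 1.60-fold and DCW1 1.36-fold, with 1 lower without knockout library 3. Adjusted p for the genes named as rising or falling in these wall lists did not exceed 0.0363.

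Counts for lists that report on cell state are given beside these, and their part in the results was not tested. Of mitotic and cytokinesis genes, 10 of 12 rose and 1 fell (median log2 1.48): CLB2 and CLB1, for mitotic cyclins, rose 5.87-fold and 4.76-fold, and SWI5, for a factor of the end of mitosis, 4.55-fold, while CDC20, for an activator of the anaphase-promoting complex, fell 1.77-fold. The median difference of that list to the mean of the wild type came to 1.07, 1.78 and 1.57 in knockout libraries 1 to 3, and that of the wall genes 0.30, 0.52 and 0.50. All 16 example genes for ribosomal proteins rose, with a median of 2.03. Of sporulation genes, listed because GAS2 and GAS4 act in spores, 3 of 15 rose and 3 fell (median log2 -0.14). SMK1, for a kinase of spore wall assembly, fell 4.05-fold, SPR28 2.12-fold and SPR1 1.31-fold. SSP1, OSW1 and SSP2 rose 2.04-fold, 1.98-fold and 1.59-fold, at group means of 2.56 TPM or less. Of the 8 sporulation genes kept by a filter of 5 CPM on average, 0 rose and 3 fell. SPS100, for a spore wall protein and the most abundant gene of that list, did not pass (log2 -1.35 ± 0.81, SE; adjusted p = 0.180) and had 2722, 2637 and 2812 TPM in wild-type libraries 1 to 3 and 2446, 208 and 417 TPM in knockout libraries 1 to 3. Without knockout library 1, 6 sporulation genes were lower, SPS100 among them, and leaving out wild-type library 1 or 3 or either of knockout libraries 2 and 3 gave 1 higher. Of mating-type specific genes 4 of 10 rose and 0 fell (median log2 0.30), including STE2, STE6 and BAR1, which rose 1.60-fold, 1.74-fold and 1.54-fold. In that list 2 were lower without knockout library 1. With RLE scaling, library totals only, DESeq2 and limma on either TPM scale, 1 was lower.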

How the data were processed

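RNA was measured in 6 libraries, 3 per genotype, grouped by sample title. The authors' gene table was deposited with read counts, which are whole numbers without normalization, and with TPM and RPKM values, per the file headers; RPKM was not used. The authors also deposited a signed fold change (a score, negative for decreases), its log2 and p-values with false discovery rates. FastQC and build R64 are named in the submitters' processing notes; for the aligner, the counting program and the deposited test, names were not given in the sources used here. Coordinates of all 53 members were identical in the R64 reference.

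Genes were kept with filterByExpr (minimum count 10, minimum total count 15), leaving 6080 across the whole gene table, and tested with edgeR 4.0.16 (quasi-likelihood, TMM scaling, robust dispersion) under R 4.3.3; adjustment over all of them was by Benjamini-Hochberg, with a threshold of 0.05. TMM factors were 1.02 to 1.07 for wild-type libraries and 0.947 to 0.958 for knockout libraries. SEs come from the F statistic. Library totals set the precision given in the text. The alternatives were RLE and total-count scaling, no filter and a filter of 5 CPM on average, DESeq2 1.42.0, limma 3.58.1 on log2(TPM + 1) and log2(TPM + 0.1), each library left out in turn, and a block for the number in the titles.

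The members, classes and lists of other genes were chosen with earlier results of these data known. Full values are given, per class, for up to 3 called members with the largest change in each direction, the member with the highest mean TPM and pairs whose calls differ. Members described beyond these, and SPS100, BUD7 and PGM2, were chosen after their values were seen. Up to 3 genes per list and direction with the smallest p could be named. Counts separate the strands only as far as the stranded kit and the counting allowed. The members MTL1, MID2, SKT5, MKK1, GAS1 and YPS3 overlap an annotated gene on the opposite strand. SCW10 overlaps YMR304C-A on the same strand by 68 bases, where strand cannot divide the reads. YMR304C-A had 2113 counts over all libraries beside 32859 for SCW10.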

Additional observations from a re-analysis of the deposited data

How the results depend on the processing

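Of the 30 wall genes called higher and 6 called lower, 25 and 4 kept their call and direction under every alternative that was run; the exceptions were GSC2, GAS5, KRE5, CHS3, WSC3, PKC1 and BCK1. Leaving out each library in turn gave 1729 to 2378 genes higher and 1090 to 2261 lower (2261 without knockout library 1, 1211 with wild-type library 1 left out and 1090 without knockout library 3), 25 to 31 wall genes higher and 4 to 16 lower (16 without knockout library 1), 10 to 12 and 2 to 5 glucan, 4 to 5 and 0 to 2 chitin, 8 each time and 1 to 6 mannoprotein, and 3 to 6 and 1 to 3 signalling genes. Scaling by library totals only, DESeq2 and limma on either TPM scale each gave 1 chitin gene lower in place of 0 and 2 mannoprotein genes lower in place of 1; scaling by library totals only gave 3 signalling genes higher and 2 lower. The median over all tested genes ranged from -0.13, under scaling by library totals, to 0.023. The cause of these changes was not tested. Whether replicate numbers pair the samples could not be decided. Deviations from the group means correlated across genes at 0.32, 0.18 and -0.067 for equal numbers 1 to 3. For unequal numbers they ran from -0.30 to 0.26, and 3 libraries per group are too few to tell. With the replicate block, 28 wall genes were higher and 7 lower, with 2 mannoprotein genes lower, against 2059 and 1857 of all genes. The sign of 4 genes that never passed turned. MKK1 went from 0.00076 to -0.024, -0.14, -0.0035, -0.024, -0.070, -0.072, -0.00084 under RLE, library totals, the 5 CPM filter, DESeq2, limma on TPM + 1 and TPM + 0.1, and the block, and to -0.049 and -0.068 without wild-type or knockout library 2 (up to 0.058 without knockout library 1). ROM2 went to -0.045 with library totals, SKT5 to 0.063 and 0.0097 without wild-type or knockout library 2 (down to -0.076 without wild-type library 1), and MID2 to 0.037, 0.046, 0.015 without wild-type library 2 or knockout library 2 or 3. No pair ratio changed sign, and only EXG1 over EXG2 moved by more than its spread, from 0.21 to 0.12 with a pseudocount of 0.1. The lowest count of a wall gene in any library was 143.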
